A study of Mus musculus with 43 samples.

Results

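The 8 genes described here make, organise, bind and degrade hyaluronan: the synthases Has1 and Has2, the matrix organisers Ptx3, Tnfaip6 and Vcan, the receptor Cd44, and the hyaluronidases Hyal1 and Hyal2. They were taken by gene symbol from a table of 57010 genes, and all 8 were found. The set was chosen because an earlier analysis of the same counts found Ptx3 and Has1 to have the largest falls in Q150X against wild-type hearts at day 30, so that contrast is given below as a description, without a p-value for any of the 8.

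The mice were either wild type or carried Q150X, a stop codon made in Vegfa by CRISPR/Cas9 to resemble a stop-gained variant of the human gene. The design text writes the allele as VegfaQ150X/Q150 and abbreviates the edited animals as HO, and the labels do not spell out zygosity. Whole hearts were taken without injury (homeostasis, 3 libraries per genotype), 7 days after acute myocardial infarction (MI; 4 per genotype) and 30 days after it (3 wild-type and 4 Q150X). Endothelial cells were taken at homeostasis (3 per genotype) and 3 days after MI (2 per genotype), and cardiomyocytes at both times (3 per genotype). The sources used here do not give strain, sex, age, the method of cell isolation or whether replicates are separate animals, so p-values measure the spread between these libraries, which may be technical.

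Hyaluronan is a long sugar polymer that synthases in the plasma membrane extrude directly into the extracellular space. In inflamed tissue the enzyme encoded by Tnfaip6 (TSG-6) moves heavy chains from inter-alpha-inhibitor onto hyaluronan, and the long pentraxin PTX3 holds such chains together in a crosslinked matrix. Cells bind this matrix through CD44, the proteoglycan versican (Vcan) attaches along the chains, and hyaluronidases cut them. Hyaluronan-rich matrix is laid down in the infarcted heart by stromal cells and is later turned over, and PTX3 is a known acute-phase product of stromal, endothelial and myeloid cells.

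Libraries held 25035490 to 45243608 counts. Levels are given as CPM on TMM-scaled library sizes. Changes are on the log2 scale with their standard error (SE), from edgeR's quasi-likelihood test, and p was adjusted by Benjamini-Hochberg over all genes tested in the compartment. The cardiomyocyte fraction carried Myh6 at 16287 to 33687 CPM and Pecam1 at no more than 62.8, and the endothelial fraction carried Pecam1 at 2421 to 3156 CPM at homeostasis. Some libraries stood apart. Endothelial Q150X library 2 of day 3 had 1290 CPM of the lymphocyte recombinase gene Rag1 and 330 CPM of Pecam1, where the other libraries of that day had 1060 to 1616 of Pecam1. All 4 endothelial libraries of day 3 carried Xist (494 to 1089 CPM) and almost no Y-linked Ddx3y (0.191 to 0.501), whereas the 6 of homeostasis carried Ddx3y (188 to 267) and little Xist (0.649 to 1.19), so time after MI and sex cannot be told apart in endothelial cells. Number 1 of the uninjured hearts of each genotype contained the atrial gene Myl7 (525 and 468 CPM), and wild-type heart library 4 of day 7 contained the placental gene Tpbpa (467 CPM). Vegfa mRNA levels, 150 to 655 CPM in hearts, do not check a stop codon.

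The promoters of Ptx3, Has1 and Tnfaip6 are shown because these genes were induced after MI and separated the genotypes in the levels of day 30. RefSeq's table for GRCm38.p6 matched 7 of the 8 genes, all except Has2. Of the 250 bases before each RefSeq start, bases next to the start that lie inside the gene model used here were left out, except for Hyal2. That removed 17 bases for Has1, 23 for Hyal1 and 104 for Tnfaip6. Capitals mark matches, on either strand, to a motif of inducible transcription: CEBP (TTGCNNAA), the cyclic-AMP element CRE (TGACGTCA), AP1 (TGANTCA) and GAS (TTCNNNGAA).
Ptx3 promoter, chr3:66219637-66219886, plus strand: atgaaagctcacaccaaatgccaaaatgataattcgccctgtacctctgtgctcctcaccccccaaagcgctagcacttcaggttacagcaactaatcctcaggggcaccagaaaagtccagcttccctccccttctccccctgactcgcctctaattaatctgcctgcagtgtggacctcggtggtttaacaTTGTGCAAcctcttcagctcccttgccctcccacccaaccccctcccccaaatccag
Has1 promoter, chr17:17855206-17855438, minus strand: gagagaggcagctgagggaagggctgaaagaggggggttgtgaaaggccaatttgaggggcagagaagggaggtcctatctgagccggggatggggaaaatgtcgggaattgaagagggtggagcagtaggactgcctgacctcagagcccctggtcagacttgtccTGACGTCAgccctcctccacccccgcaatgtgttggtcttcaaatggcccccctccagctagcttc
Tnfaip6 promoter, chr2:52037863-52038008, plus strand: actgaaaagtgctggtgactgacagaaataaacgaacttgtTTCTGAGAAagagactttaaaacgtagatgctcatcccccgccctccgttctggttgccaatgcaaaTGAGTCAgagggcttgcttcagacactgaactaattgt
The Ptx3 promoter held 1 CEBP match, 57 to 50 bases before the start, a motif found in 9.56% of 32851 promoters. Has1 held 1 CRE match 83 to 76 bases before its start. That motif, found in 1.55% of promoters, was added to the search after the Has1 sequence had been read. Tnfaip6 held an AP1 match (6.75% of promoters) and a GAS match (7.02%). No promoter of these 3 held the NF-kappaB motif (17.63% of promoters) or TATAAA (12.37%), and in the windows of Cd44, Hyal1 and Vcan none of the 6 motifs was found. For Tnfaip6 the 104 bases next to the start were not searched, so a match there could not be seen. In the Hyal2 window an NF-kappaB match was found, but that window lies inside the Hyal2 gene span used here and not before it. A match describes letters in a window and shows no binding.

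In uninjured hearts all 8 mRNAs were present, and the ranges of the genotypes overlapped for each. Has1 was at 0.225, 0.422 and 0.237 CPM in wild type and 0.228, 0.336 and 0.285 in Q150X. Ptx3 was at 1.42, 0.153 and 0.713 CPM in wild type and 0.987, 0.739 and 0.428 in Q150X. Both genes sat near the lower end of detection, with values that rest on few reads. Per kilobase of exon, Has1 stood below Has2, the main synthase of the developing heart, with a ratio of means of 0.349 in wild type (0.234 to 0.469 over libraries) and 0.291 in Q150X (0.225 to 0.417). Between the hyaluronidases, the GPI-anchored Hyal2 of the cell surface exceeded the lysosomal Hyal1 per kilobase by 8.79-fold in wild type and 11.6-fold in Q150X. Hyal2 averaged 23.0 ± 5.96 CPM (SD, n = 3) in wild type and 26.2 ± 10.4 in Q150X. Vcan averaged 22.3 ± 4.78 and 19.4 ± 8.42 CPM, Cd44 10.3 ± 1.09 and 10.4 ± 2.78, and Tnfaip6 1.33 ± 0.320 and 1.04 ± 0.543.

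None of the 8 was called between genotypes at homeostasis by edgeR (0% of 17845 genes were called, 504 genes had an unadjusted p under 0.05, and DESeq2 called 3). The Ptx3 difference was -0.10 ± 0.94 (adjusted p = 1), with a range of 2 SE from -1.98 to 1.78. For Has1 it was -0.05 ± 0.99 (adjusted p = 1), from -2.04 to 1.94. Ranges this wide leave room for sizeable differences of either sign.

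**Figure D1:**
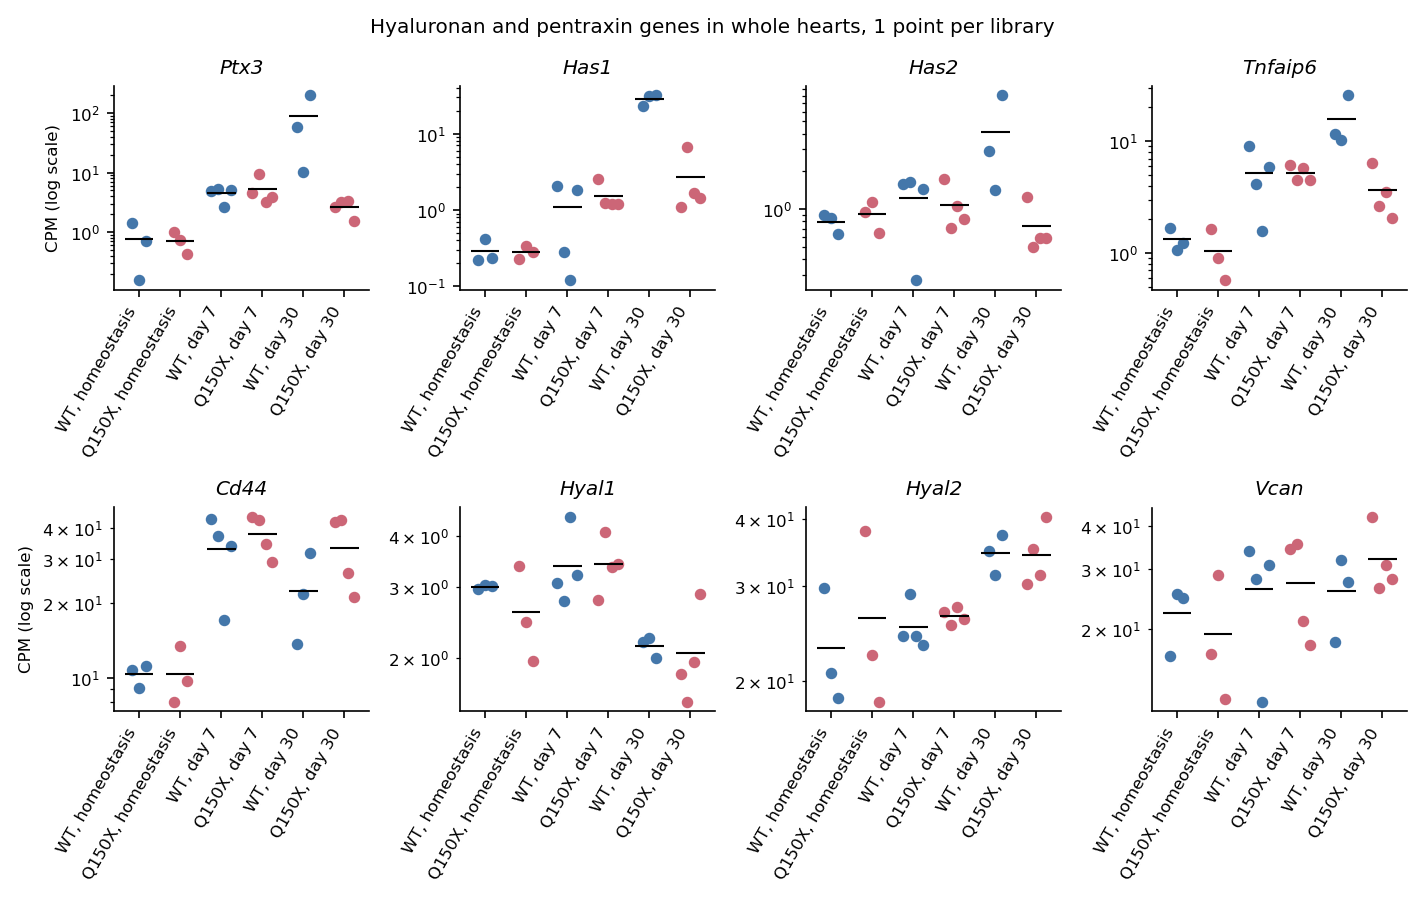
CPM of the 8 genes in each whole-heart library (points, log axis; blue wild type, red Q150X, bars the group means) at homeostasis, day 7 and day 30 after MI. At day 30 the 3 wild-type libraries lie above all 4 Q150X libraries for Ptx3, Has1, Has2 and Tnfaip6, while for Cd44, Hyal1, Hyal2 and Vcan the genotypes overlap.

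At 7 days after MI the receptor Cd44 and the matrix organisers Ptx3 and Tnfaip6 had risen in hearts of both genotypes, and Has1 passed the test in Q150X and not in wild type, a difference that the interaction term did not call. Cd44 went from 10.3 ± 1.09 to 32.8 ± 11.3 CPM (SD, n = 3 and 4) in wild type and from 10.4 ± 2.78 to 37.8 ± 7.21 in Q150X. In these groups every day-7 library had more Cd44 than every uninjured one. The synthase Has2, the hyaluronidases and Vcan did not pass in either genotype. In wild type 3 of the 8 were called higher and 0 lower, against 13.7% of all genes called and 7.65% called higher. In Q150X it was 4 of the 8 higher and 0 lower, against 26% called and 13.8% higher. These 4 include Has1, which had few counts at homeostasis and whose call supports nothing. The median change of the 8 was 1.15 in wild type and 1.17 in Q150X, beside 0.05 and 0.06 over all genes.

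Has1 in the wild-type day-7 hearts was at 2.09, 0.282, 0.120 and 1.83 CPM, and in Q150X at 2.54, 1.23, 1.19 and 1.19. Libraries 2 and 3 of wild type lay within or below the homeostasis range, so the groups overlapped in wild type and not in Q150X. Has1 was near the lower end of detection in uninjured hearts and passed the filter on low counts through the injured groups. Its Q150X call therefore supports nothing. The Q150X rise was 2.43 ± 0.82 (adjusted p = 0.0358). It was lost (adjusted p = 0.0773 to 0.117) when any one of the uninjured Q150X libraries or day-7 library 1 was left out, without the libraries that stood apart (2.31, adjusted p = 0.137), with replicate number as a block at homeostasis (2.57, adjusted p = 0.150) and with no filter on low counts (adjusted p = 0.110). Has2 was at 1.58, 1.63, 0.270 and 1.44 CPM in wild type and at 1.75, 0.706, 1.07 and 0.827 in Q150X, overlapping homeostasis.

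Ptx3 was at 4.95, 5.27, 2.61 and 5.09 CPM in wild type and 4.49, 9.44, 3.23 and 3.87 in Q150X. Every library of day 7 was above every uninjured one. The rise was 2.54 ± 0.81 in wild type (adjusted p = 0.0437) and 2.87 ± 0.81 in Q150X (adjusted p = 0.0147). In wild type the call was lost (adjusted p = 0.0723 to 0.147) without uninjured library 2 or 3 or without day-7 library 1, 2 or 4, and with no filter on low counts (adjusted p = 0.121). In Q150X it was lost without uninjured library 3 (adjusted p = 0.0610). Without the libraries that stood apart the Ptx3 rise was 3.30 in wild type (adjusted p = 0.0986) and 3.16 in Q150X (adjusted p = 0.0604). With replicate number as a block at homeostasis it was 2.99 (adjusted p = 0.131) and 3.19 (adjusted p = 0.0866).

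Tnfaip6 was at 9.11, 4.17, 1.59 and 5.89 CPM in wild type and 6.07, 4.47, 5.73 and 4.47 in Q150X. Wild-type library 3 lay inside the homeostasis range and the other libraries lay above it. The rise was 1.96 ± 0.52 in wild type (adjusted p = 0.0169) and 2.32 ± 0.53 in Q150X (adjusted p = 0.0035). Without uninjured library 2 or 3 or day-7 library 1 the wild-type rise had an adjusted p of 0.0575 to 0.0686. Cd44 rose by 1.67 ± 0.33 in wild type (adjusted p = 0.00235) and 1.86 ± 0.33 in Q150X (adjusted p = 0.000545), and no single library or setting removed either call.

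Vcan, the large proteoglycan of provisional matrix, was at 33.8, 28.0, 12.3 and 30.9 CPM in wild type at day 7 and 34.3, 35.5, 21.2 and 18 in Q150X, overlapping homeostasis in both. Hyal1 averaged 3.38 ± 0.752 and 3.41 ± 0.531 CPM, and Hyal2 25.2 ± 2.58 and 26.4 ± 0.930 (SD, n = 4). Without the libraries that stood apart, Hyal2 passed the test with a small rise of 0.40 ± 0.14 in wild type (adjusted p = 0.0497) and 0.38 ± 0.13 in Q150X (adjusted p = 0.0325). Library 3 of wild type was the lowest of its group for Ptx3, Has1, Has2, Tnfaip6, Cd44 and Vcan. The same library had the lowest sum of 8 fibroblast markers (1934 CPM, where the others had 4048 to 4808) and of 6 leukocyte markers (231 of 231 to 471), and the part of these in its values was not tested. In bulk tissue fewer cells of a type and less RNA per cell cannot be told apart. Over the groups, fibroblast markers summed to 801 to 1931 CPM at homeostasis and 3092 to 5743 in Q150X at day 7, so the sum moved with Ptx3, Tnfaip6 and Cd44. The markers differed in this: in Q150X Col3a1 went from 233 to 1560 CPM, Pdgfra from 47.9 to 62.3 and Tcf21 from 6.78 to 7.96.

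Between genotypes at day 7 none of the 8 was called (0% of 17845 genes; 561 had an unadjusted p under 0.05 and DESeq2 called 4). The Ptx3 difference was 0.23 ± 0.62 (adjusted p = 1; 2 SE from -1.0 to 1.46) and that of Has1 0.51 ± 0.63 (adjusted p = 1; from -0.75 to 1.78). For the change from homeostasis to day 7, edgeR's interaction with genotype was called for none of the 8 (0% of genes called; 588 with an unadjusted p under 0.05, 1 called by DESeq2). For Ptx3 the interaction was 0.33 ± 1.13 and for Has1 0.57 ± 1.19.

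**Figure D2:**
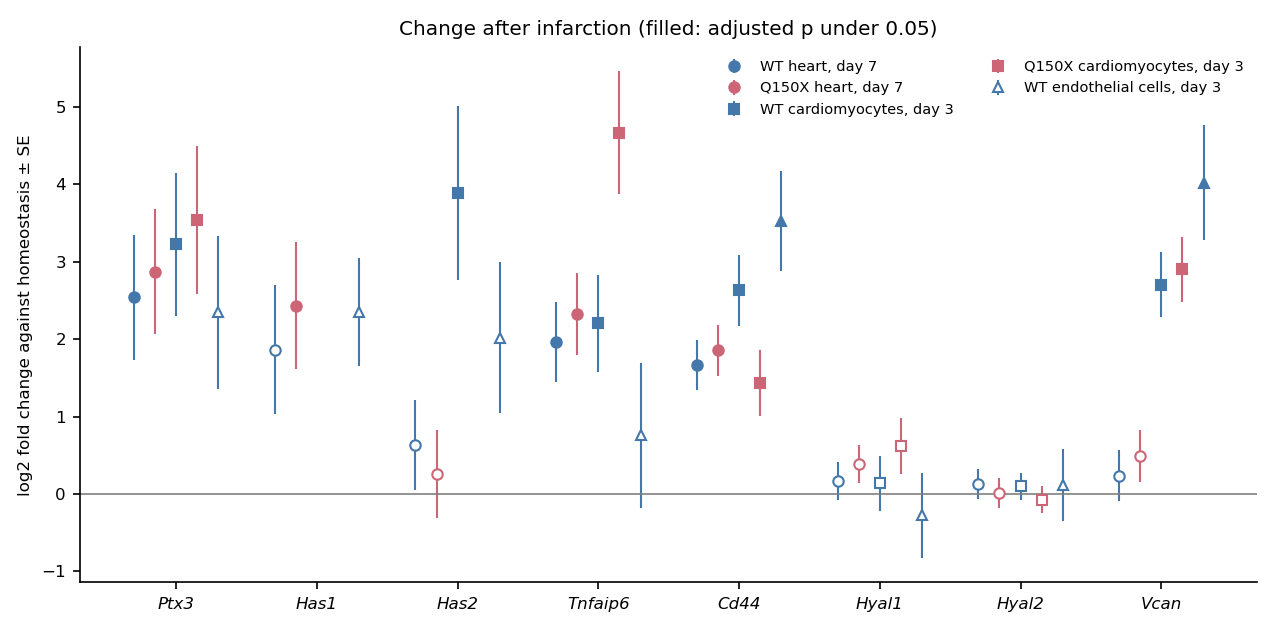
Log2 fold changes ± SE after MI against homeostasis in wild-type and Q150X hearts at day 7, wild-type and Q150X cardiomyocytes at day 3 and wild-type endothelial cells at day 3; filled points have an adjusted p under 0.05. Cd44 is filled in all 5 comparisons, and Hyal1 and Hyal2 in none. Has1 was removed by the filter in cardiomyocytes and has no points there. Has2 in Q150X cardiomyocytes, with 0 counts at homeostasis, is not drawn. Filled points support nothing for Has1 in Q150X hearts or for Ptx3, Has2 and Tnfaip6 in cardiomyocytes. Those genes were near the lower end of detection at homeostasis.

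At day 30 the genotypes had diverged for the synthases and their partners, which is what the set was chosen on. Wild-type hearts had Has1 at 23.2, 30.8 and 31.8 CPM and Q150X hearts at 1.10, 6.69, 1.66 and 1.44. For Ptx3 the wild-type libraries had 59.6, 10.4 and 199.9 CPM and the Q150X libraries 2.68, 3.15, 3.38 and 1.51. In both genes every wild-type library exceeded every Q150X library. Has1 was tight in wild type (28.6 ± 4.66, SD, n = 3), while Ptx3 covered 10.4 to 199.9 CPM there (89.97 ± 98.4). As a description, the genotype difference was -5.06 ± 0.72 for Ptx3 and -3.40 ± 0.66 for Has1. Over all genes 0.443% were called in this contrast and 0.291% were lower in Q150X.

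Has2 and Tnfaip6 had the next largest differences of the 8, likewise on values of the contrast that chose the set, with every wild-type library above every Q150X library. Has2 was at 2.89, 1.42 and 8.09 CPM in wild type and 1.25, 0.495, 0.590 and 0.583 in Q150X, a difference of -2.49 ± 0.56. Tnfaip6 was at 11.6, 10.3 and 25.7 CPM in wild type and 6.42, 2.62, 3.54 and 2.06 in Q150X, a difference of -2.11 ± 0.47. Library 3 of wild type was the highest of its group for Ptx3, Has1, Has2, Tnfaip6, Cd44 and Hyal2. The receptor and the hyaluronidases did not separate the genotypes. Cd44 had 13.7, 21.8 and 31.7 CPM in wild type and 42.1, 43.2, 26.3 and 21.1 in Q150X. Vcan averaged 25.8 ± 6.84 and 31.9 ± 7.28 CPM, Hyal1 2.14 ± 0.131 and 2.05 ± 0.575, and Hyal2 34.6 ± 2.94 and 34.3 ± 4.57 (SD, n = 3 and 4).

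Sums of cell-type markers and of inducer genes in the day-30 libraries are given as a description, and their part in the member values was not tested. Fibroblast markers summed to 2079, 4102 and 3401 CPM in the wild-type libraries and to 4449 to 7089 in Q150X, without overlap. Within this list Col1a1, Col1a2, Col3a1 and Lum separated the genotypes, while Dcn, Postn, Pdgfra and Tcf21 overlapped. Pdgfra averaged 63.3 CPM in wild type and 61.3 in Q150X, and Tcf21 16.5 and 19.5. Leukocyte markers summed to 372 to 634 CPM in wild type and 487 to 1316 in Q150X. Epicardial and mesothelial markers summed to 142, 221 and 55.7 CPM in wild type and 75.4, 420.7, 180.4 and 66.0 in Q150X, and the highest of these was Q150X library 2, which also had the highest Has1 of its group. Sums of 6 cardiomyocyte genes were 29382 to 33582 CPM in wild type and 16162 to 26091 in Q150X. The 10 inflammatory inducer genes summed to 383 to 526 CPM in wild type and 136 to 303 in Q150X, without overlap. Il6, a cytokine in that list, averaged 18.6 ± 10.9 CPM in wild type and 2.07 ± 0.80 in Q150X, and the part of these in the member values was not tested.

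**Figure D3:**
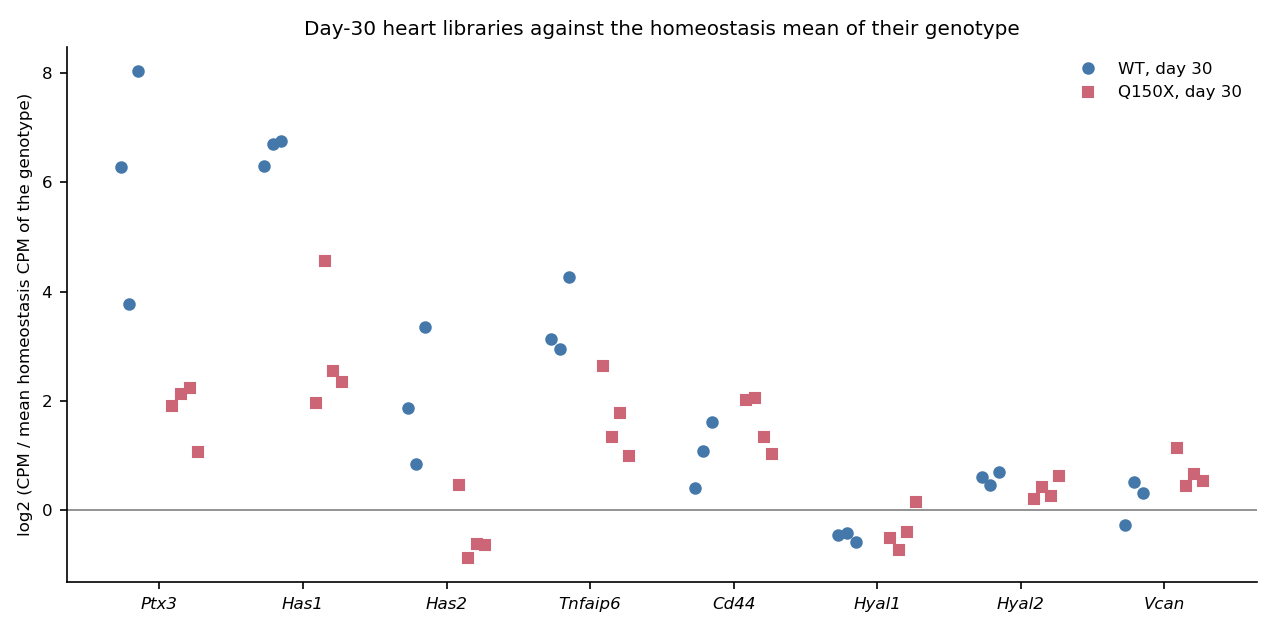
Log2 CPM of each day-30 heart library minus the log2 homeostasis mean of its genotype, for the 8 genes (blue wild type, red Q150X). Ptx3, Has1, Has2 and Tnfaip6 have all blue points above all red points; Cd44, Hyal1, Hyal2 and Vcan have mixed colours.

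Against their own homeostasis, wild-type hearts at day 30 had higher Has2, Tnfaip6 and Cd44, and Q150X hearts had higher Tnfaip6 and Cd44. Ptx3 and Has1 are described here without a test, since the wild-type libraries of day 30 chose them. They stood 6.87 ± 0.92 and 6.58 ± 0.91 above homeostasis in wild type, and 1.90 ± 0.81 and 3.23 ± 0.82 in Q150X. Of the other 6 genes, 3 were called higher and 0 lower in wild type, where 8.93% of all genes were called, 5.45% higher and 3.49% lower. In Q150X 2 of the 6 were called higher and 0 lower, where 29.7% were called and 15.6% were higher. The same wild-type libraries enter the genotype contrast, so these calls are not independent of how the set was chosen.

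Has2 rose by 2.37 ± 0.62 in wild type (adjusted p = 0.0236). The call was lost without day-30 library 3 (1.43, adjusted p = 0.182), without uninjured library 2 or 3 (adjusted p = 0.0870 and 0.111), and when the compared groups were fitted alone (adjusted p = 0.0732). Tnfaip6 rose by 3.57 ± 0.56 in wild type (adjusted p = 0.000854), under every setting tried, and by 1.82 ± 0.52 in Q150X (adjusted p = 0.0135). The Q150X rise had an adjusted p of 0.0520 to 0.0736 without uninjured library 2 or 3 or day-30 library 1. Cd44 rose by 1.11 ± 0.34 in wild type (adjusted p = 0.0464) and by 1.67 ± 0.33 in Q150X (adjusted p = 0.00116). The wild-type Cd44 call was lost without uninjured library 2 or 3 or day-30 library 2 or 3 (adjusted p = 0.0943 to 0.216; 0.78 without day-30 library 3). It was also lost without the libraries that stood apart (1.14, adjusted p = 0.0639), with replicate number as a block at homeostasis (1.09, adjusted p = 0.0890), with library size alone (adjusted p = 0.0646), with no filter on low counts (0.117) and with the compared groups fitted alone (0.0699).

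Hyal2 at day 30 was at 34.9, 31.5 and 37.3 CPM in wild type and 30.2, 35.2, 31.4 and 40.4 in Q150X. Uninjured hearts number 1, which carried the atrial transcripts, had 29.8 CPM in wild type and 38.0 in Q150X, while numbers 2 and 3 had 18.2 to 22.3. Without the libraries that stood apart Hyal2 rose by 0.82 ± 0.14 in wild type (adjusted p = 0.000221) and 0.76 ± 0.13 in Q150X (adjusted p = 0.000159), in fits that called 34% and 44.3% of all genes. With replicate number as a block at homeostasis only, the rises were 0.98 ± 0.15 (adjusted p = 0.00018) and 0.82 ± 0.15 (adjusted p = 0.000361). Hyal2 per kilobase exceeded Hyal1 by 18.5-fold in wild type (16.1 to 21.5 over libraries) and 19.2-fold in Q150X (16.1 to 26.0) at day 30.

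The ratio of the synthases also changed in level with time, given here as a description since Has1 at day 30 is among the values that chose the set. Per kilobase, Has1 over Has2 was 0.824 in wild type at day 7 (0.162 to 1.24 over libraries) and 1.33 in Q150X (1.05 to 1.64). At day 30 it was 6.49 in wild type (3.69 to 20.4) and 3.5 in Q150X (0.823 to 12.7). In wild type every library of day 30 had the ratio above every uninjured library, and in Q150X so did each of the 4.

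The endothelial fraction carried the matrix genes in another proportion from the heart as a whole. It also carried RNA of other cell types at homeostasis. Fibroblast markers summed to 688 to 1071 CPM there, within or just below the 801 to 1931 of uninjured hearts, and Myl7 was at 28.9 to 92.0 CPM. Decorin (Dcn), a fibroblast proteoglycan gene, averaged 470.0 ± 80.2 CPM in the wild-type fraction and 552 ± 233 in wild-type hearts (SD, n = 3). The part of such RNA in the member levels was not tested. At homeostasis Tnfaip6 was at 15.1, 24.8 and 20.2 CPM in wild type and 27.9, 23.8 and 16.2 in Q150X, and Has1 at 3.74, 5.46 and 5.06 and at 4.73, 4.72 and 3.40. Has1 per kilobase exceeded Has2 in every uninjured endothelial library (2.25 to 3.60-fold in wild type and 2.68 to 7.50-fold in Q150X). Hyal2 was the most abundant of the 8 in CPM, with 63.7 ± 8.97 in wild type and 63.3 ± 6.09 in Q150X (SD, n = 3). Ptx3 averaged 5.99 ± 2.88 and 5.68 ± 2.17 CPM, Hyal1 11.5 ± 1.85 and 9.79 ± 2.13, and Vcan 11.4 ± 0.757 and 10.001 ± 1.82. None of the 8 was called by genotype with edgeR (0% of 18223 genes called, 168 with an unadjusted p under 0.05, 1 by DESeq2), with Ptx3 at -0.08 ± 0.90 and Has1 at -0.15 ± 0.63 (adjusted p = 1 for both; 2 SE from -1.87 to 1.72 and from -1.42 to 1.12).

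At 3 days after MI, Cd44 and Vcan were the members that rose in wild-type endothelial cells. Cd44 was at 312 and 320.5 CPM, against 25.5, 27.3 and 29.3 at homeostasis, and Vcan at 175 and 198 CPM, against 12.0, 11.7 and 10.6. The changes were 3.53 ± 0.65 for Cd44 (adjusted p = 0.0131) and 4.02 ± 0.74 for Vcan (adjusted p = 0.0129). These 2 of the 8 were called higher and 0 lower, where 9.52% of genes were called, 6.71% higher and 2.81% lower. Both calls were lost when any of the 5 wild-type libraries was left out (adjusted p = 0.0580 to 0.0757 for Cd44 and 0.0549 to 0.0755 for Vcan). Leukocyte markers summed to 71.5 to 144 CPM in the endothelial libraries of homeostasis and 2264 to 2778 in wild type at day 3, fibroblast markers to 688 to 1071 and 2746 to 3851, and endothelial markers to 8795 to 10591 and 5342 to 5447. These markers and the sex-linked RNA moved with time after MI, and their parts cannot be told apart.

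The other members were also higher by level in both wild-type day-3 libraries, other than the hyaluronidases. Ptx3 was at 19.2 and 41.7 CPM, Has1 at 22.8 and 25.7, Has2 at 5.64 and 7.30, and Tnfaip6 at 29.1 and 38.6, all above their homeostasis libraries of the same genotype. Hyal1 was at 10.5 and 8.44 CPM and Hyal2 at 72.8 and 65.5, overlapping homeostasis. Without Q150X library 2 in the fit, 6 of the 8 were called higher and 0 lower, in a fit that called 35.7% of genes and 19.2% higher. There Ptx3 rose by 2.34 ± 0.49 (adjusted p = 0.00762), Has1 by 2.34 ± 0.20 (adjusted p = 1.96e-06), Has2 by 2.01 ± 0.47 (adjusted p = 0.00658) and Tnfaip6 by 0.75 ± 0.25 (adjusted p = 0.0440).

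The Q150X endothelial libraries of day 3 differed widely from each other. Ptx3 was at 25.7 CPM in library 1 and 1.03 in library 2, Has1 at 14.7 and 1.51, and Tnfaip6 at 33.6 and 1.12. Cd44 was at 588 and 77.6 CPM, Vcan at 311 and 30.1, Hyal2 at 43 and 10.2, Hyal1 at 8.15 and 1.58 and Has2 at 6.06 and 0.287. All 8 were lower in library 2, whose endothelial markers summed to 712 CPM and fibroblast markers to 247, against 3427 and 1855 in library 1. None of the 8 was called by genotype with edgeR (0% of 18223 genes, 4223 with an unadjusted p under 0.05, 2335 by DESeq2), with Ptx3 at -1.20 ± 1.10 (adjusted p = 0.527; 2 SE from -3.40 to 1.01) and Has1 at -1.58 ± 0.79 (adjusted p = 0.255; from -3.16 to -0.01). When library 1 was left out, all 8 were called lower (Ptx3 at -4.92, Has1 at -4.04), but the Q150X group is then the 1 library that stood apart. In both such fits the lone library is assumed to vary like the other groups. When library 2 was left out, the remaining library was higher for Cd44 (0.87 ± 0.18) and Vcan (0.71 ± 0.18) and lower for Hyal2 (-0.71 ± 0.19). Leukocyte genes also varied: the Q150X libraries had Lyz2 at 226 to 3146 CPM and Itgam at 17.2 to 181. In wild type of day 3 Lyz2 was at 1312 to 1828 CPM and Itgam at 69.7 to 76.0. The part of leukocyte RNA in these differences was not tested.

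**Figure D4:**
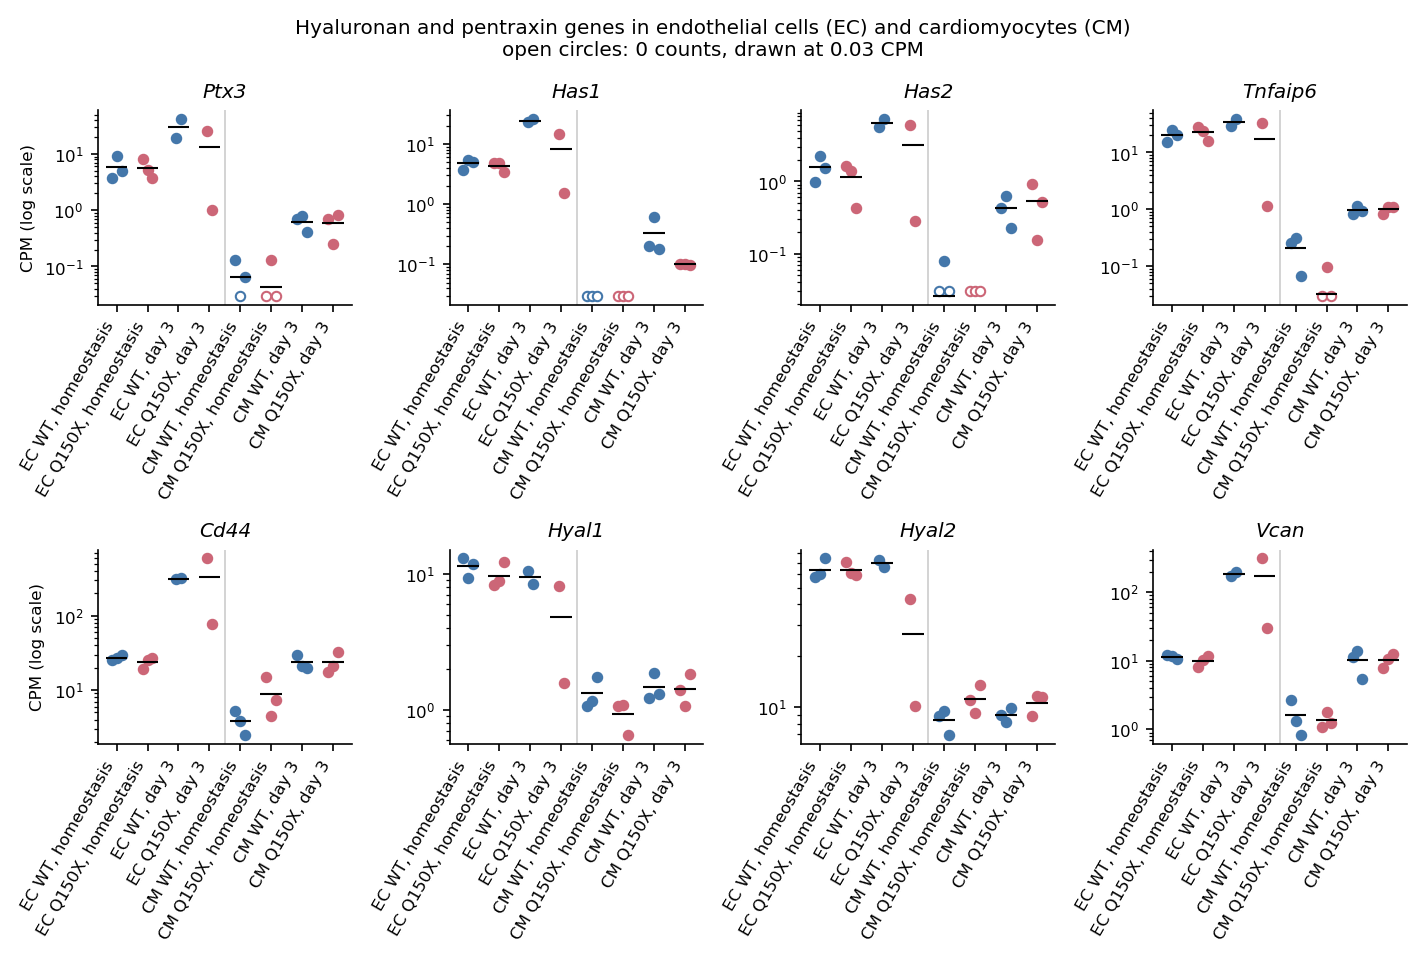
CPM of the 8 genes in each endothelial (EC) and cardiomyocyte (CM) library at homeostasis and day 3 after MI (log axis; blue wild type, red Q150X, open circles libraries with 0 counts drawn at the bottom). Has1 has open circles in all 6 uninjured cardiomyocyte libraries, and the lower red point of endothelial day 3 is library 2 in every panel.

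Cardiomyocytes had almost none of the synthases, Ptx3 or Tnfaip6 at homeostasis and low levels of them 3 days after MI. At homeostasis Has1 had 0 counts in all 6 libraries, which allows a mean of up to 0.038 CPM in wild type and 0.036 in Q150X (3 counts over a group, counting error alone). Has2 had 2 counts in wild type and 0 in Q150X, Ptx3 5 and 4, and Tnfaip6 16 and 3. At day 3 Ptx3 was at 0.689, 0.782 and 0.407 CPM in wild type and 0.697, 0.254 and 0.813 in Q150X, each above all uninjured libraries of its genotype. Cd44 was at 29.9, 21.2 and 19.5 CPM in wild type and 17.6, 21.1 and 32.9 in Q150X, and Vcan at 11.5, 13.8 and 5.52 and at 7.84, 10.5 and 12.4. Their uninjured levels were 3.83 ± 1.37 and 8.90 ± 5.36 CPM for Cd44 and 1.60 ± 0.953 and 1.36 ± 0.367 for Vcan (SD, n = 3).

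Has1 was removed by the filter on low counts in cardiomyocytes, so 7 of the 8 were tested. Cd44 and Vcan, which were measured well in both states, passed in both genotypes and were higher at day 3. The edgeR test also called Ptx3, Has2 and Tnfaip6 higher in both genotypes (adjusted p = 0.00063 to 0.0286). In wild type 17.4% of all genes were called, 10.1% higher and 7.22% lower, and in Q150X 27% were called and 14.9% were higher. Those 3 genes were near 0 at homeostasis and passed the filter through the injured group alone, so they had to differ and their calls support nothing. The hyaluronidases did not pass in either genotype, with Hyal2 at 8.39 ± 1.37 and 8.97 ± 0.840 CPM in wild type before and after MI and 11.2 ± 2.17 and 10.6 ± 1.52 in Q150X, and Hyal1 between 0.651 and 1.86 in all 12 libraries.

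Vcan rose by 2.70 ± 0.42 in wild type (adjusted p = 0.00117) and 2.90 ± 0.42 in Q150X (adjusted p = 0.000449), and no single library removed either call. Cd44 rose by 2.63 ± 0.46 in wild type (adjusted p = 0.00458) and 1.43 ± 0.43 in Q150X (adjusted p = 0.0324). The Q150X Cd44 call was lost without uninjured library 2 or 3 or day-3 library 2 or 3 (adjusted p = 0.0564 to 0.130), with no filter on low counts (0.0810) and with the compared groups fitted alone (0.0679). Uninjured Q150X library 1 had 14.9 CPM of Cd44, where the other 2 had 4.49 and 7.34.

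For the sparse genes the pooled ratio of day 3 to homeostasis carries a 95% counting interval, which leaves out the spread between libraries. Ratios and fitted changes are given as a description, since the tested genes passed the filter through the injured group alone. Ptx3 was 9.88-fold higher in wild type (4.06 to 31.3; 79 and 5 counts) and 12.2-fold in Q150X (4.54 to 45.9; 70 and 4 counts), with fitted changes of 3.23 ± 0.92 and 3.53 ± 0.96. Has2 was 16.9-fold higher in wild type (4.45 to 143) and at least 14.6-fold in Q150X, where homeostasis had 0 counts. Has1, untested, was at least 8.96-fold higher in wild type (43 counts against 0) and at least 2.78-fold in Q150X (12 against 0), the floor being 3 counts over the group. Tnfaip6 had a fitted change of 2.20 ± 0.62 in wild type and was 27.6-fold higher in Q150X (9.21 to 136; 119 and 3 counts).

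In wild-type cardiomyocytes the Ptx3 call was lost without uninjured library 2 or 3 or day-3 library 1 or 2 (adjusted p = 0.0734 to 0.0800), the Has2 call without uninjured library 1 or 3 or day-3 library 1 or 2 (0.0751 to 0.106), and the Tnfaip6 call without uninjured library 3 or day-3 library 1 or 2 (0.0512 to 0.0932). In Q150X the Ptx3 call was lost without uninjured library 3 (0.0551). Fibroblast markers summed to 18.2 to 87.5 CPM in uninjured cardiomyocytes and 410 to 908 at day 3, and leukocyte markers to 2.14 to 10.4 and 88.0 to 235, so both sums moved with Cd44, Vcan and the sparse genes. The fibroblast markers differed: in wild type Col1a1 went from 4.12 to 118 CPM and Dcn from 29.2 to 31.4. The part of fibroblast and leukocyte RNA in the member values was not tested. The leukocyte integrin gene Itgam was at 0 in the uninjured wild-type libraries.

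No member was called by genotype in cardiomyocytes by edgeR at homeostasis (0% of 15169 genes; 2009 with an unadjusted p under 0.05, 258 by DESeq2) or at day 3 (0%; 254 and 2). Ptx3 differed by -0.40 ± 1.25 at homeostasis (adjusted p = 0.926; 2 SE from -2.89 to 2.10) and by -0.09 ± 0.70 at day 3 (adjusted p = 1; from -1.48 to 1.30). The response to MI gave no called interaction with genotype (0%; 1186 and 20), with Ptx3 at 0.31 ± 1.39.

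Across the 14 groups the order of levels differed by role. Each compartment was normalised on its own, so steps between compartments rest on separate scalings. Ptx3 and Has1 were highest in wild-type hearts of day 30, and wild-type endothelial cells of day 3 came next, with overlapping ranges. Q150X hearts of day 30 ranked 8 of 14 for Ptx3 and 6 of 14 for Has1. Tnfaip6 and Has2 were highest in wild-type endothelial cells of day 3, which stood apart from the next group for Tnfaip6 and overlapped it for Has2. Cd44 and Vcan were highest in the endothelial groups of day 3, whose genotypes overlapped. Hyal1 and Hyal2 were highest in both endothelial groups of homeostasis and in wild type of day 3, which overlapped each other and stood apart from all other groups. Uninjured cardiomyocytes were lowest for Ptx3, Has1, Has2, Tnfaip6, Cd44 and Vcan.

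The genes most like Ptx3 over the 21 heart libraries, by Pearson r of log2(CPM + 1) among 12287 genes with a mean of at least 1 CPM, were Birc3 (0.95), Gfpt2 (0.94), Rgs16 (0.93), Litaf (0.93) and Myd88 (0.92). For Has1 they were Il6 (0.94), Ch25h (0.94), Socs3 (0.93), Egr2 (0.92) and Rnd1 (0.91). Over the 14 hearts of homeostasis and day 7 the leading genes changed. For Ptx3 they became C1s1 (0.97), Myd88 (0.97), Pdpn (0.96), Hmox1 (0.96) and Cxcl5 (0.96), and for Has1 Wnt4 (0.90), Mrc1 (0.89), Col6a5 (0.88), Abcb1b (0.87) and Capn6 (0.86). Myd88 was on both lists of Ptx3. The points share libraries and depth, so r describes these libraries and has no p.

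Among the members themselves, Ptx3 followed Tnfaip6 (r = 0.89), Has2 (0.83) and Has1 (0.83) over the 21 hearts more closely than Cd44 (0.39) or Vcan (0.18). Over the 14 hearts without day 30, Ptx3 followed Cd44 (0.93) and Tnfaip6 (0.87) more closely than Has1 (0.67), Vcan (0.48) or Has2 (0.38). Tnfaip6 and Cd44 had r = 0.92 there and 0.61 with day 30 included.

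The wider hyaluronan and pentraxin pathway was described by 45 further genes: precursor enzymes, heavy-chain donors, receptors, proteoglycans and their proteases, degrading enzymes and other pentraxins. In hearts 37 of them were tested. At day 7, 5 rose and 0 fell in wild type (list median -0.03, all genes 0.05), and 9 rose and 1 fell in Q150X (0.07 and 0.06). These shares are near the 13.7% and 26% of all genes called, so the counts are no result about the list. Both genotypes raised Itih3, a heavy chain of inter-alpha-inhibitor that Tnfaip6 transfers (2.20 ± 0.43, adjusted p = 0.00219, and 2.36 ± 0.42, adjusted p = 0.000497), and Ugdh, which makes the UDP-glucuronate used by the synthases (0.82 ± 0.22, adjusted p = 0.0197, and 0.84 ± 0.22, adjusted p = 0.00888). Also called higher in wild type were the clearance receptor Stab2 (2.67 ± 0.45, adjusted p = 0.000606) and the hyaluronan-degrading Cemip (5.04 ± 1.24, adjusted p = 0.011). Cemip averaged 0.0505 CPM in uninjured wild-type hearts and passed the filter through the injured groups, so its call supports nothing. In Q150X the versican protease Adamts5 (1.02 ± 0.20, adjusted p = 0.00112) and the lymphatic receptor Lyve1 (0.67 ± 0.19, adjusted p = 0.013) rose, and the neuronal pentraxin Nptx1 fell by 2.59 ± 0.91 on the log2 scale (adjusted p = 0.0433). Nptx1 averaged 0.447 CPM at homeostasis and 0.070 at day 7 in Q150X. It passed the filter through the uninjured hearts, so its call supports nothing. At most 4 genes per direction are named, and the interaction with genotype called 0% of genes. A gene named for 1 genotype was therefore not shown to be particular to it.

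At day 30, 9 of the 37 rose and 0 fell in wild type (list median 0.24, all genes -0.02), and 11 rose and 1 fell in Q150X (0.42 and -0.03). Over all genes 8.93% were called in wild type and 29.7% in Q150X, and the Q150X count is near that share. In wild type the largest support was for Tlr2, a receptor for hyaluronan fragments (3.99 ± 0.42, adjusted p = 5.1e-05), Gfpt2 of the hexosamine pathway (2.11 ± 0.28, adjusted p = 0.000196), Uap1, which makes UDP-N-acetylglucosamine (0.85 ± 0.19, adjusted p = 0.0113), and Adamts4 (3.66 ± 0.85, adjusted p = 0.0136). In Q150X it was for Lyve1 (1.48 ± 0.19), Tlr2 (2.58 ± 0.39) and the lysosomal enzyme gene Hexa (0.71 ± 0.13), while Adamts9 fell by 1.21 ± 0.40 on the log2 scale (adjusted p = 0.03). Between genotypes at day 30, 2 of the 37 passed, both lower in Q150X and both precursor enzymes, where 0.443% of all genes were called. That contrast chose the set, and the lists were chosen with earlier results known. Its count of called genes ran from 0 to 714 under the alternatives. The 2 calls are therefore a description and give no separate support. Gfpt2 averaged 92.3 ± 33.6 CPM in wild type (66.1 to 130.3) and 29.9 ± 1.68 in Q150X (27.5 to 31.3), a difference of -1.63 ± 0.25. Uap1 averaged 88.5 ± 23.4 CPM (71.0 to 115) and 48.7 ± 10.7 (39.7 to 64.2), a difference of -0.86 ± 0.18. In neither gene did the genotypes overlap, and the list median of this contrast was 0.26 (all genes 0.04).

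In the cell fractions 3 of 38 tested genes rose and 0 fell in wild-type endothelial cells of day 3 (list median 0.43, all genes 0.01): Tlr2 (3.66 ± 0.82), Pgm3 (0.96 ± 0.24) and Gfpt1 (0.63 ± 0.16), the last 2 of the hexosamine route. That is no more than the 9.52% called over all genes. In cardiomyocytes 8 of 30 rose in wild type (0.53 and -0.01) and 11 of 30 in Q150X (0.89 and 0.00), and 0 fell in either, beside 17.4% and 27% of all genes called. Tlr2 (2.09 ± 0.31 and 2.87 ± 0.32), Adamts4 (2.42 ± 0.50 and 3.71 ± 0.54) and Ugdh (0.86 ± 0.19 and 0.99 ± 0.19) were among those with the smallest p in both. Adamts4 averaged 0.381 and 0.207 CPM in uninjured cardiomyocytes, and Cemip, also called higher in both genotypes, 0.052 and 0.080. Both genes passed the filter through the injured groups, so their calls support nothing. The cardiomyocyte counts and list medians include such genes and are no result about the list. In all other genotype comparisons 0 genes of the list were called.

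The 10 inducer genes, cytokines and transcription factors known to raise Ptx3 and the synthases, gave 0 calls in wild-type hearts at day 7 and 4 higher in Q150X (Nfkbiz, Osm, Cebpd and Il6). All genes were called at 13.7% and 26% there, and no inducer was called for the interaction with genotype. At day 30, 5 rose and 1 fell in wild type and 6 rose in Q150X, beside 8.93% and 29.7% of all genes. In wild type Il6 rose by 7.14 ± 0.98, Cebpd by 3.43 and Nfkbiz by 3.31. By the size of that change Il6 was near the lower end of detection in uninjured wild-type hearts. It passed the filter on low counts through the injured groups, so no weight is given to its calls against homeostasis. Between genotypes at day 30 only Il6 of the 10 was called, at -3.17 ± 0.67. That contrast chose the set, so the Il6 difference is a description. In endothelial cells of day 3, 4 of the 10 rose in wild type, where 9.52% of all genes were called. In cardiomyocytes 5 rose and 1 fell in wild type and 7 rose and 1 fell in Q150X, where 17.4% and 27% of all genes were called. Genes with few reads at homeostasis could pass the filter through the injured groups alone, so nothing is read from these counts.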

How the data were processed

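The deposited table holds raw counts per gene for bulk RNA libraries made from 2 µg of Trizol-extracted RNA, per the labels' protocols. Per the submitters' processing notes, HISAT2, kallisto and the build GRCm39 were used. Versions, the step that made the counts, the annotation and strandedness are not stated there, so reads of overlapping or antisense genes could be shared. The 8 genes and all lists were chosen with earlier results of these data known. Symbols (52029 identifiers), coordinates and exon lengths came from GENCODE M21 on the earlier build GRCm38, matched by identifier, and promoters from RefSeq.

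Hearts, endothelial cells and cardiomyocytes were fitted separately with edgeR 4.0.16 (limma 3.58.1, R 4.3.3) on the counts as deposited: filterByExpr (count minimum 10, total minimum 15), TMM factors, a robust quasi-likelihood fit with 1 mean per group, and F-tests adjusted by Benjamini-Hochberg. A gene was called at an adjusted p under 0.05. An SE was obtained by dividing the change by the square root of F. Heart libraries held 25948706 to 37356177 counts, endothelial ones 32008175 to 45243608 and cardiomyocyte ones 25035490 to 42246348, and no library pair was identical. Intervals and floors (3 counts) cover counting error alone.

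Members are named in every group. A tested change is printed for members that passed and for Ptx3 and Has1 between genotypes, and at most 4 genes per direction are named from each wider list. Of the genes so named, 1 is not reported here. Likeness names 5 genes, leaving out numbered predicted transcripts and pseudogenes. The same-numbered libraries deviated together in uninjured hearts (r = 0.488 to 0.689), a pairing read from the values and not stated in the labels, and not at other times. Alternatives were DESeq2 1.42.0 and its size factors in edgeR, library size alone, no filter, the compared groups alone, replicate blocks, and leaving out libraries. The fits were tested on simulated counts. Plots were drawn with matplotlib 3.10.9 in Python 3.11.15, with numpy 2.4.6, pandas 2.3.3 and scipy 1.17.1.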

Additional observations from a re-analysis of the deposited data

Results flagged for a closer look

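Among 24 combinations of a member and a group of 4 heart libraries, 6 had 1 library set apart from the other libraries of its group. The cutoff flags about 1 in 20 for independent normal values. These combinations share libraries and use CPM without logs, so their count is not weighed against that rate. In wild-type hearts of day 7, library 3 was low for Ptx3 (2.61 CPM, the others 4.95 to 5.27) and for Has2 (0.270, the others 1.44 to 1.63), and library 2 was high for Hyal2 (29.0, the others 23.3 to 24.2). In Q150X hearts of day 7, library 1 was high for Has1 (2.54 CPM, the others 1.19 to 1.23). In Q150X hearts of day 30, library 2 was high for Has1 (6.69 CPM, the others 1.10 to 1.66) and library 1 was high for Has2 (1.25, the others 0.495 to 0.590). Groups of 2 or 3 libraries were not examined in this way.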

How the results depend on the processing

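The 39 member fold changes followed here are mostly those that passed a test, with Ptx3 and Has1 between genotypes. Of their 516 values under the alternatives, 431 were counted as the same, 69 no longer passed, 2 newly passed and 14 changed sign, and none of the last was called. For tested changes, the same means an unchanged direction and side of the threshold. Ptx3 and Has1 at day 30 carry no test, so the threshold was not looked at for them. There it means an unchanged direction and a shift smaller than the larger SD of log2 CPM within the compared groups. New calls outside the 39 were Hyal2 in hearts and Ptx3, Has1, Has2 and Tnfaip6 in wild-type endothelial cells. Depth limits Ptx3, Has1 and Has2, which held few counts in uninjured hearts and cardiomyocytes, and endothelial cells of day 3 have 2 libraries per genotype.

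Between genotypes at homeostasis the Ptx3 difference in hearts was 0.030 with replicate number as a block at homeostasis, 0.45 without the libraries that stood apart, and -0.58 to 0.73 when single libraries were left out. The ranges without single libraries were -0.21 to 0.29 for Has1 in hearts at homeostasis and -0.21 to 0.41 for Ptx3 at day 7. For Ptx3 they were -0.41 to 0.38 in uninjured endothelial cells, -4.20 to 0.40 in uninjured cardiomyocytes and -0.39 to 0.28 in cardiomyocytes of day 3.

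Between genotypes at day 30, the contrast that chose the set, edgeR called 2 members (Ptx3 and Has1), and nothing is read from that count. It was 1 with the replicate block, 4 with DESeq2, 4 without the libraries that stood apart, 0 with the compared groups alone, and 0 to 4 without single libraries. At day 7 it was 1 to 3 in wild type and 2 to 4 in Q150X without single libraries. At day 30 against homeostasis it was 1 in wild type with the compared groups alone, and 1 to 4 in wild type and 1 to 3 in Q150X without single libraries. In endothelial cells of day 3 the genotype count was 3 without Q150X library 2 and 0 to 8 without single libraries. The wild-type count there was 6 without that library, 6 with the compared groups alone, 0 with the replicate block (Cd44 adjusted p = 0.0535, Vcan 0.0523, by edgeR) and 0 without any one of the 5 wild-type libraries. In cardiomyocytes, with the 3 sparse genes counted, it was 2 to 5 in wild type and 3 to 5 in Q150X without single libraries, and 2 in Q150X with the compared groups alone, where the filter also removed Ptx3 and Has2. Where no construction shows it, the cause was not tested.

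The replicate block over a whole compartment, whose numbers pair no libraries beyond uninjured hearts, also ended the day-7 calls of Ptx3 in wild type (2.71, adjusted p = 0.0712) and Has1 in Q150X (2.43, adjusted p = 0.0559) by edgeR. On total counts in place of TMM scaling, Q150X endothelial cells of day 3 ranked 2 and not 1 for Cd44, and those of wild type 3 and not 1 for Hyal2.

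Over all genes the counts called also moved, DESeq2 included. Between genotypes at day 30 it was 79, and 0 to 714 under the alternatives. At day 30 against homeostasis it was 1594 in wild type (437 to 6221) and 5307 in Q150X (3247 to 8091), and at day 7 it was 2448 (1430 to 3263) and 4641 (2247 to 5467). In endothelial cells of day 3 it was 1734 in wild type (442 to 7182) and 0 between genotypes (up to 10498). In cardiomyocytes of day 3 it was 2634 in wild type (1352 to 4340) and 4097 in Q150X (2430 to 4486). Between genotypes in cardiomyocytes it was 0, with up to 543 at homeostasis, 8 at day 3 and 219 for the interaction.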
